A study of Arabidopsis thaliana with 70 samples.

Results

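The genes described here are 9 that write or maintain cytosine methylation in Arabidopsis thaliana. They were taken by identifier from the 33597 genes of the expression table: the methyltransferases MET1 (AT5G49160), CMT2 (AT4G19020), CMT3 (AT1G69770) and DRM2 (AT5G14620), the remodeller DDM1 (AT5G66750), the histone methyltransferases KYP (AT5G13960), SUVH5 (AT2G35160) and SUVH6 (AT2G22740), and the methyl-cytosine reader VIM1 (AT1G57820). Their messenger RNA was followed through 38 libraries in 14 groups. Of these, 7 were wild type (WT), and the other 7 were rdd, which carries mutations in 3 demethylase genes, ROS1, DML2 and DML3. Seedlings 10 days old, grown on plates with sucrose, were treated with flg22, the flagellin peptide that plants sense as a sign of bacteria, at 100 nM and sampled at 0, 1 or 3 h, in 3 libraries for each genotype and time. Leaves of soil-grown plants 4 weeks old were inoculated by hand with water or with 100 nM flg22 and sampled 24 h later, also in 3 libraries per group. Other leaves were given the same pretreatments and, 24 h later, Pseudomonas syringae DC3000 hrcC, a strain that cannot inject effector proteins, and were sampled after 1 h, in 2 libraries per group. No seedlings without flg22 at 1 h or 3 h are among the samples, so time and flg22 cannot be told apart there.

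Plants methylate cytosine in 3 sequence contexts, CG, CHG and CHH, where H is any base but G. MET1 copies CG methylation onto the new strand after DNA replication, and VIM1 binds the half-methylated site and brings MET1 to it. CMT3 in CHG and CMT2 in CHG and CHH sites bind the H3K9me2 histone mark that KYP, SUVH5 and SUVH6 lay down, so DNA and histone methylation feed each other. DRM2 methylates all contexts where small RNAs guide it, and DDM1 opens nucleosomes of silent transposons to the methyltransferases. ROS1, DML2, DML3 and DME form the family of enzymes that remove methylation, and DME is not among the genes mutated in rdd.

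Levels are given in FPKM, fragments scaled by gene length and library total, so that levels of different genes can be set side by side. Fold changes are log2 differences of FPKM + 1 followed by ± SE, from limma fits over all genes with at least 1 FPKM in 3 libraries (2 libraries in the hrcC set), and a gene was called at an adjusted p under 0.05. Read counts are not part of FPKM, so depth and counting error are unknown. Nothing says that the libraries of a group came from separate plants, so p-values measure the spread between these samples, which may be technical. In whole organs, fewer cells of a type and less RNA per cell cannot be told apart.

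In each of the 4 leaf groups the library numbered 3 stood apart from those numbered 1 and 2. Organelle genes took 0.073% to 0.098% of the FPKM total in the libraries numbered 3 and 3.026% to 5.54% in the others, and 0.082% to 0.117% in the leaves with hrcC. Within a leaf group, the library numbered 3 held 5.82 to 8.54 times the DDM1 level of the mean of the libraries 1 and 2, 3.8 to 6.18 times the CMT3 level and 2.67 to 3.81 times the MET1 level. For SUVH6 the same ratio was 0.657 to 0.82. Libraries of the same number deviated together across leaf groups, and so did those numbered 1 with those numbered 2. So the numbers 1 and 2 are not shown to pair samples. Leaf results are given without and with the replicate number as a block, and without the libraries numbered 3. In seedlings, 1 library of rdd at 3 h also stood apart, with 18555 genes above 0 and an organelle share of 2.855%, and no comparison with it gained or lost a call without it. As for tissue, 4 root markers summed to between 644 and 1808 FPKM in seedlings and to at most 0.18 FPKM in any leaf library. Of the mutated genes, DML3 was lower in rdd leaves, at 0.39 to 0.7 FPKM after water against 1.76 to 2.71 FPKM in WT, and at 0.27 to 0.42 FPKM after flg22 against 2.26 to 3.57 FPKM. In seedlings it was at most 0.12 FPKM in either genotype. ROS1 and DML2 were not lower in rdd leaves after water: ROS1 stood at 27.7 ± 4.49 FPKM in rdd and 19.3 ± 1.4 FPKM in WT, and DML2 at 5.05 ± 2.06 and 5.43 ± 2.16 FPKM with overlap (SD, n = 3). A transcript level does not show whether a mutated gene still gives a working enzyme.

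The 9 genes were expressed at low to middling levels and none was at 0 in any library. Median levels over the 38 libraries ran from 0.65 FPKM for SUVH5 to 7.93 FPKM for SUVH6, with DRM2 at 6.98, VIM1 at 4.69, CMT3 at 4.14, MET1 at 3.79, CMT2 at 2.54, KYP at 2.24 and DDM1 at 1.84 FPKM. The genes differed most in how far they ranged. The mean of the highest group was 10.8 times that of the lowest for DDM1, 8.9 times for VIM1 and 6.23 times for CMT2. It was 3.61 times for CMT3, 3.57 for DRM2, 3.05 for SUVH6, 3.02 for MET1, 2.18 for KYP and 2.01 for SUVH5.

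In all 6 seedling groups DRM2, the RNA-guided methyltransferase, and VIM1 had the highest means of the 9, and their libraries overlapped each other in each group. In WT seedlings at 0 h DRM2 stood at 7.16 ± 0.9 FPKM and VIM1 at 6.65 ± 0.98 FPKM (SD, n = 3). In all 8 leaf groups SUVH6, one of the histone methyltransferases, had the highest mean, between 9.12 and 11.3 FPKM. SUVH6 was at most 5.86 FPKM in any seedling library and at least 7.81 FPKM in any leaf library, with no overlap. When the 14 groups are ordered by level, most neighbours overlapped: 13 of 13 steps for CMT3 and SUVH5, 12 for MET1, KYP and SUVH6, 11 for CMT2, DRM2 and DDM1, and 9 for VIM1.

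**Figure D1:**
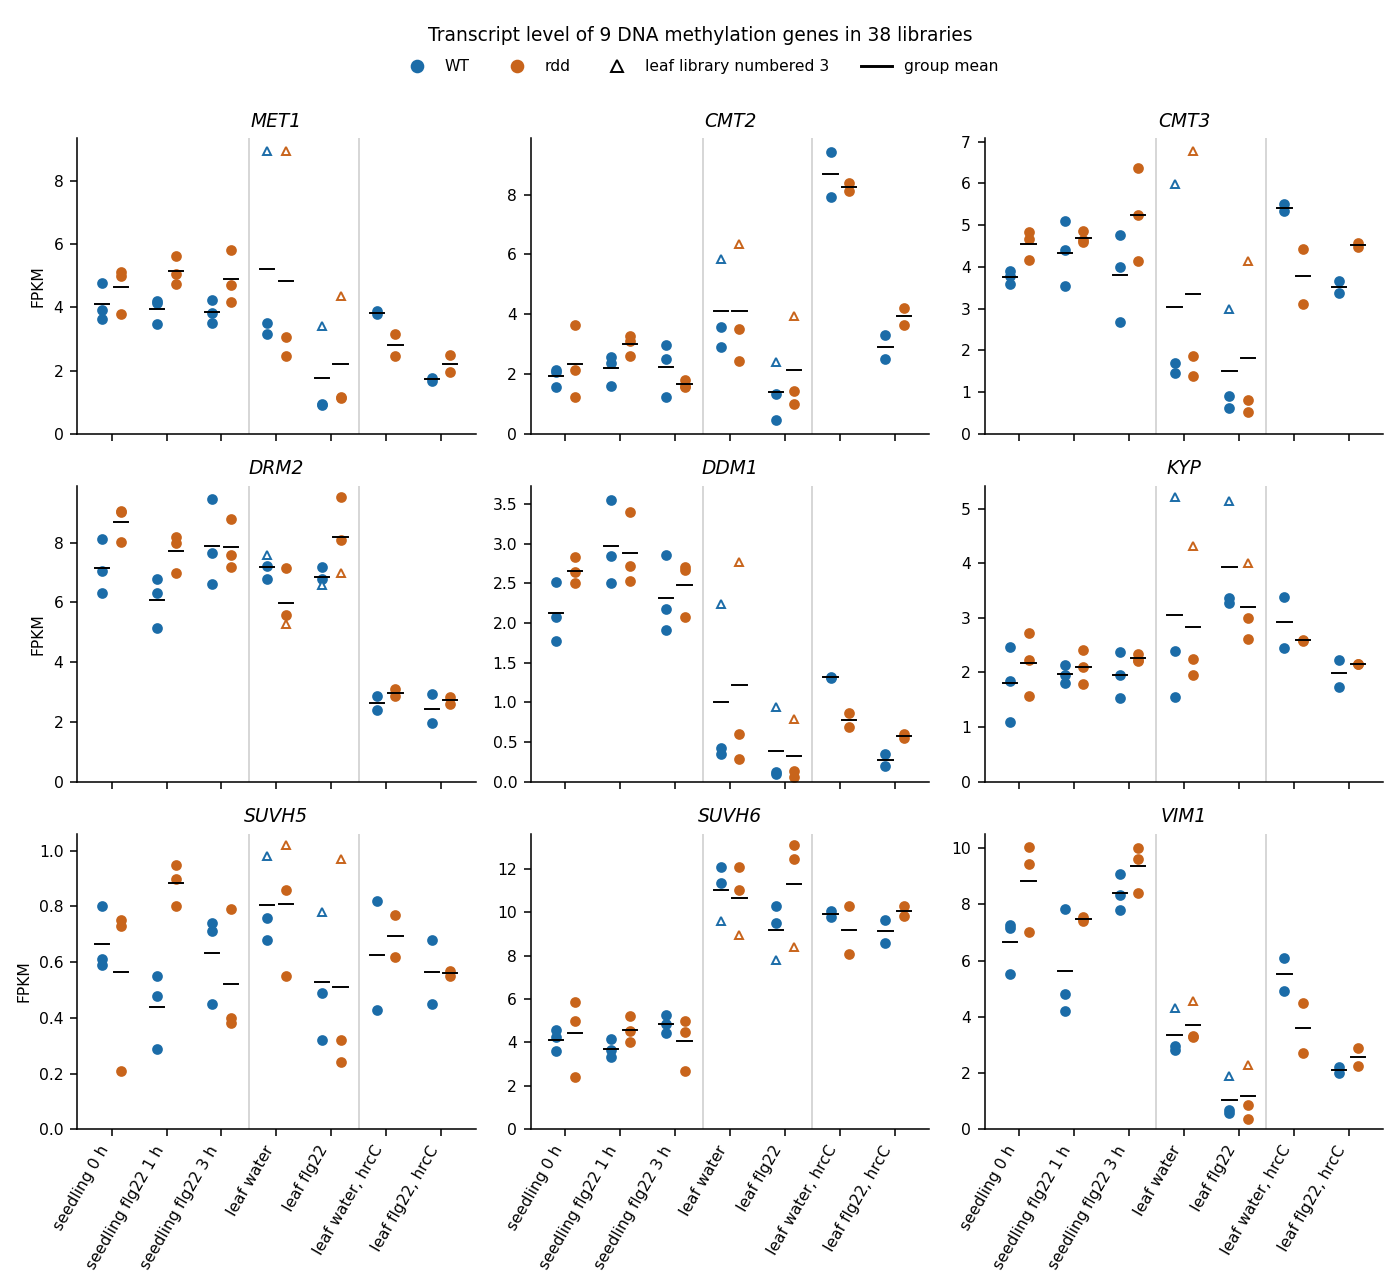
FPKM (vertical axes, linear, from 0) of the 9 genes in each of 38 libraries, by group (horizontal axis). Circles are libraries of WT or rdd, open triangles are the leaf libraries numbered 3, and bars are group means. SUVH6 is above 7 FPKM in every leaf library and below 6 FPKM in every seedling library, while the open triangles lie highest in each leaf group for MET1, CMT2, CMT3, DDM1, KYP, SUVH5 and VIM1.

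In seedlings none of the 8 genes tested was called after flg22. Of the 48 values in the 6 comparisons between times, 26 were positive and 22 negative, between -0.59 and 0.54, and 2 had an unadjusted p under 0.05. Of all genes tested, 17.3% were called at 1 h and 18.9% at 3 h against 0 h in WT, and 18.7% between 1 h and 3 h. In rdd these shares were 16.8%, 16.1% and 11.4%. The 95% intervals of the 48 values reached down to -1.12 and up to 0.94, so changes smaller than that are not settled by these libraries.

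The maintenance methyltransferase MET1 stood at 4.77, 3.64 and 3.92 FPKM in WT seedlings at 0 h, at 3.48, 4.2 and 4.14 FPKM at 1 h, and at 4.22, 3.81 and 3.52 FPKM at 3 h. The libraries of the 3 times overlapped. VIM1 came nearest to a call: its WT libraries held 4.2, 7.83 and 4.82 FPKM at 1 h and 9.08, 7.8 and 8.34 FPKM at 3 h, with 1 value at 1 h inside the range at 3 h (0.54 ± 0.19, adjusted p = 0.052, limma). Without the 1 h library at 7.83 FPKM the difference was 0.77 and was called (adjusted p = 0.0062), while over all alternatives the adjusted p ran from 0.0062 to 0.21. In rdd the VIM1 difference between 1 h and 3 h was 0.28 ± 0.19 (adjusted p = 0.37). The largest change was that of CMT2 in rdd, from 3.27, 2.6 and 3.09 FPKM at 1 h to 1.55, 1.6 and 1.8 FPKM at 3 h. It was not called (-0.59, adjusted p = 0.15, limma). SUVH5, at 0.21 to 0.95 FPKM in seedlings, was left out by the filter on low values and was not called without it.

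Seedlings at 0 h were set beside leaves after water, with age, tissue and growth medium all different. The leaves had also been inoculated by hand 24 h before, and any difference between the library sets goes with tissue. SUVH6 was lower in seedlings. Its WT libraries held 3.6, 4.56 and 4.23 FPKM in seedlings and 11.34, 12.07 and 9.6 FPKM in leaves, without overlap (-1.23 ± 0.22, adjusted p = 4.7e-05, limma). In rdd the difference was -1.16 ± 0.22 (adjusted p = 9.4e-05). VIM1 was higher in seedlings, at 7.15, 5.52 and 7.27 FPKM against 2.82, 2.95 and 4.33 FPKM in WT leaves, again without overlap (0.82 ± 0.26, adjusted p = 0.01). In rdd the VIM1 difference was 1.06 ± 0.26 (adjusted p = 0.0014).

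In WT these were the calls among the 8 genes tested, 1 higher and 1 lower, where 59.3% of all genes were called, 25% higher and 34.3% lower. In rdd 3 were called higher and 1 lower, with 58.5% of all genes called, 26.6% higher and 31.9% lower. DRM2 was called higher in rdd seedlings (0.48 ± 0.15, adjusted p = 0.0077), at 8.02, 9.07 and 9.02 FPKM against 7.14, 5.58 and 5.27 FPKM in leaves. In WT its difference was -0.01 ± 0.15. The rdd call was kept in 6 of 6 fits with 1 library left out and was lost when the fit held only the compared groups (adjusted p = 0.079). DDM1 stood at 2.51, 2.08 and 1.77 FPKM in WT seedlings and at 0.42, 0.35 and 2.24 FPKM in WT leaves, where the library numbered 3 overlapped the seedlings (0.76 ± 0.33, adjusted p = 0.05, not called). In rdd it was called (0.88 ± 0.33, adjusted p = 0.024). DDM1 passed the filter through the seedling libraries alone, and without the filter the adjusted p was 0.062 in WT and 0.03 in rdd. The rdd call was lost with only the compared groups (adjusted p = 0.099), with 0.1 FPKM added in place of 1 (adjusted p = 0.053) and in 4 of 6 fits with 1 library left out (adjusted p from 0.052 to 0.17 there).

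These comparisons changed without the leaf libraries numbered 3. DDM1 was then called higher in seedlings of WT (1.17 ± 0.17, adjusted p = 5e-06) and rdd (1.35 ± 0.17, adjusted p = 7.6e-07), where 28.9% and 30.9% of all genes were called higher. So was CMT3, the CHG methyltransferase, by 0.89 ± 0.19 in WT (adjusted p = 0.00042) and 1.08 ± 0.19 in rdd (adjusted p = 5.3e-05). MET1 was called higher in rdd seedlings (0.58 ± 0.16, adjusted p = 0.0033), and its WT difference was 0.23 ± 0.16 (adjusted p = 0.21). With all libraries and no block neither CMT3 nor MET1 was called. The left-out leaf libraries held 5.99 FPKM of CMT3 in WT and 6.77 FPKM in rdd. Every 0 h seedling library was lower, at most 3.91 and 4.84 FPKM. For MET1 the left-out rdd library held 8.95 FPKM, against 3.8 to 5.12 FPKM in rdd seedlings. The SUVH6 and VIM1 calls held in both genotypes. With the filter also left out, DDM1 was called in WT (adjusted p = 3.3e-06) and rdd (adjusted p = 5.3e-07), where 23.6% and 25.6% of all genes were called higher. The calls of CMT3, SUVH6 and VIM1 in both genotypes and of MET1 in rdd were kept in that fit. Of 14 mitosis genes tested, 13 were higher in seedlings of both genotypes, among them CDKB2;1 (2.34 ± 0.17 in WT), a kinase of dividing cells. The part of dividing cells or of roots in the differences of VIM1, DDM1 and CMT3 was not tested.

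In leaves 24 h after flg22, MET1, CMT2, CMT3, DDM1 and VIM1 were lower than after water in all 6 pairs of libraries with the same genotype and number. The drop was 2.05-fold to 3.91-fold for MET1, 1.61-fold to 6.19-fold for CMT2, 1.61-fold to 2.79-fold for CMT3, 2.38-fold to 4.83-fold for DDM1 and 1.99-fold to 8.92-fold for VIM1. SUVH5 was also lower in 6 of 6 pairs, by 1.05-fold to 3.58-fold, at levels of at most 1.02 FPKM. DRM2 and KYP were each lower in 2 of 6 pairs, and SUVH6 in 4 of 6. The share of all genes lower in 6 of 6 pairs was not counted, and the numbers 1 and 2 are not shown to pair samples. With the replicate block and no filter, so that all 9 genes were tested, 5 were called lower in WT and 5 in rdd. In that fit 14.1% of all genes were called lower in WT and 8.64% in rdd.

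**Figure D2:**
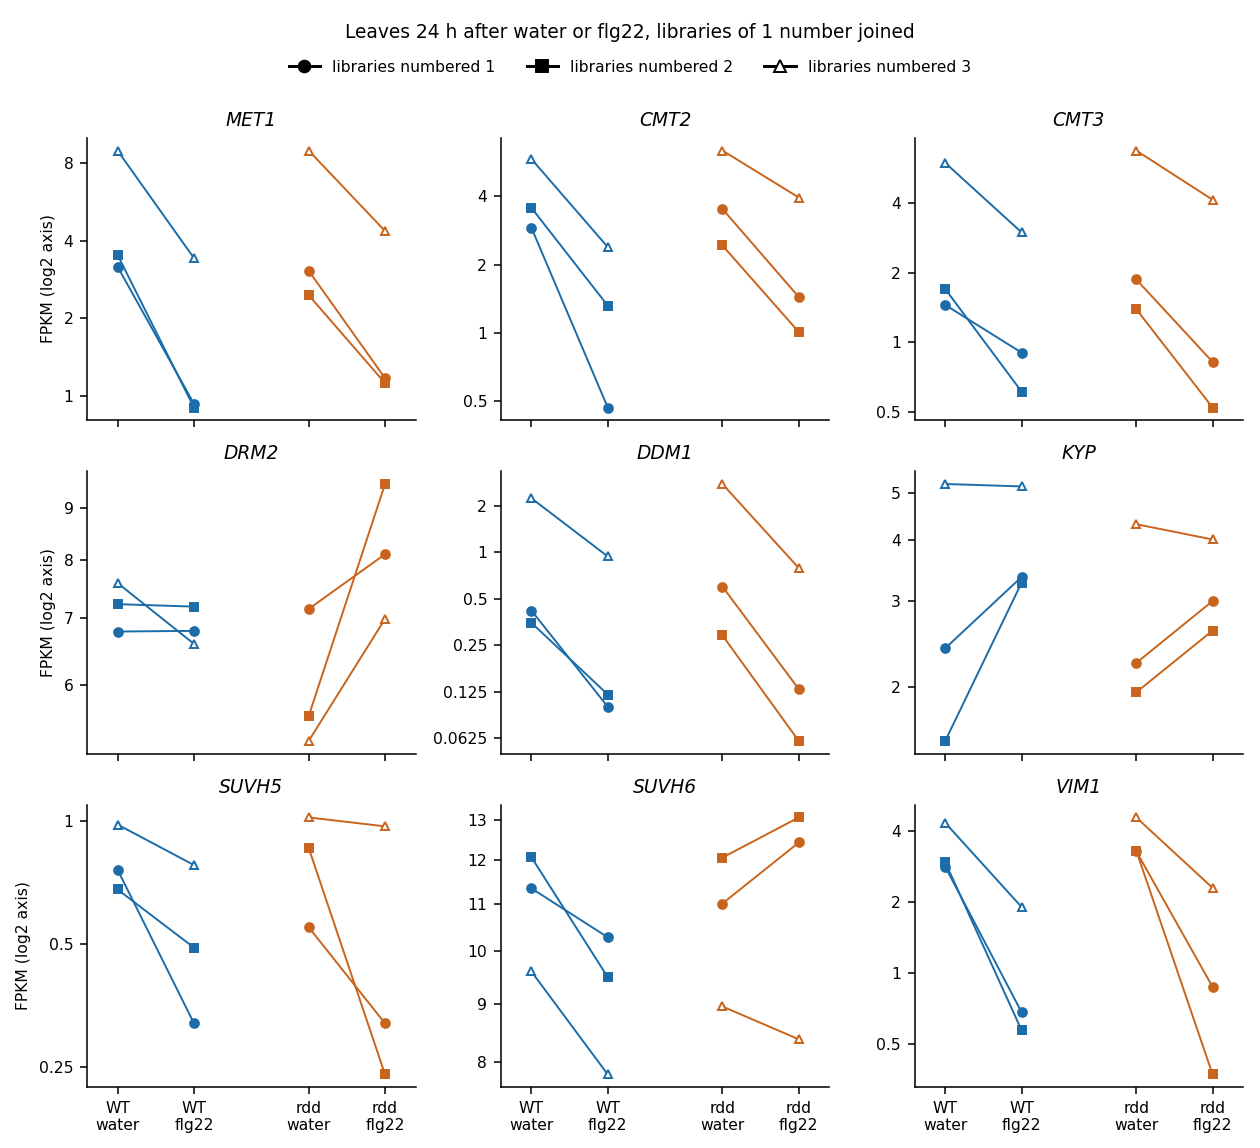
FPKM of the 9 genes (vertical axes, log2 scale) in leaves 24 h after water or flg22, in WT and rdd (horizontal axis). Each line joins the water and flg22 libraries of 1 number, and open triangles are the libraries numbered 3. All 6 lines fall for MET1, CMT2, CMT3, DDM1, SUVH5 and VIM1, but not for DRM2, KYP or SUVH6.

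MET1 stood at 3.17, 3.52 and 8.94 FPKM after water in WT leaves and at 0.93, 0.9 and 3.42 FPKM after flg22. The highest flg22 value was that of the library numbered 3, which overlapped the water libraries. The difference was -1.18 ± 0.56 without a block (adjusted p = 0.16, limma) and -1.18 ± 0.12 with it (adjusted p = 0.0002). In rdd leaves MET1 stood at 3.06, 2.46 and 8.95 FPKM after water and at 1.17, 1.12 and 4.36 FPKM after flg22. The groups overlapped in the same way (-0.83 ± 0.56, adjusted p = 0.35; with the block ± 0.12, adjusted p = 0.0013).

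With all libraries and no block, VIM1 was called in both genotypes and no other of the 9 genes was, with or without the filter. Its WT libraries held 2.82, 2.95 and 4.33 FPKM after water and 0.68, 0.57 and 1.9 FPKM after flg22, with no overlap (-1.13 ± 0.34, adjusted p = 0.038). In rdd they held 3.28, 3.3 and 4.56 FPKM after water and 0.87, 0.37 and 2.29 FPKM after flg22, with no overlap either (-1.2 ± 0.34, adjusted p = 0.039). With the block the adjusted p was 0.0013 in WT and 0.0015 in rdd. Without the block 23.1% of all genes were called in WT, 8.3% lower, and 16.5% in rdd, 3.72% lower. With it 47.5% were called in WT, 17.9% lower, and 41.2% in rdd, 10.9% lower. VIM1 passed the filter through the water libraries, and it was also called without the filter (adjusted p = 0.047 in WT and 0.048 in rdd). Leaving out 1 library kept the VIM1 call in 1 of 6 fits in each genotype. The call without the block was also lost with 0.1 FPKM added in place of 1 (adjusted p = 0.057 in WT and 0.056 in rdd) and with only the compared groups (adjusted p = 0.057 and 0.09). VIM1 has close paralogs, VIM2 to VIM5, with which it may share reads.

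The chromomethylases fell with the block in both genotypes. CMT2 held 2.91, 3.56 and 5.84 FPKM after water in WT and 0.47, 1.32 and 2.39 FPKM after flg22, with no overlap (-1.13 ± 0.21, adjusted p = 0.0026). In rdd it held 3.52, 2.43 and 6.36 FPKM after water and 1.44, 1.01 and 3.95 FPKM after flg22, with overlap (-0.74 ± 0.21, adjusted p = 0.021). CMT3 held 1.45, 1.7 and 5.99 FPKM in WT after water and 0.9, 0.61 and 2.99 FPKM after flg22, with overlap (-0.64 ± 0.15, adjusted p = 0.0072). Its change in rdd was -0.64 ± 0.15 (adjusted p = 0.0094), from 1.87, 1.39 and 6.77 FPKM to 0.82, 0.52 and 4.14 FPKM. CMT3 passed the filter only with the water libraries counted, and with the block and no filter its adjusted p was 0.0079 in WT and 0.01 in rdd. Without the block CMT2 was not called in WT (adjusted p = 0.09) or rdd (0.29), nor was CMT3 (0.53 and 0.55).

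DDM1 was under 1 FPKM in all but 2 of the 12 leaf libraries without hrcC and did not pass the filter. It stood at 0.42, 0.35 and 2.24 FPKM after water in WT and at 0.1, 0.12 and 0.94 FPKM after flg22. In rdd it stood at 0.6, 0.29 and 2.77 FPKM after water and at 0.13, 0.06 and 0.79 FPKM after flg22. In each condition the library numbered 3 was the high one, and water and flg22 libraries overlapped. With the block and no filter, DDM1 was called lower in WT (-0.46 ± 0.15, adjusted p = 0.047) and rdd (-0.62 ± 0.15, adjusted p = 0.018). The added 1 FPKM makes these values smaller than the ratios of the libraries.

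Without the libraries numbered 3, MET1, CMT2, CMT3 and VIM1 were again called lower in both genotypes. The MET1 difference was -1.18 ± 0.15 in WT (adjusted p = 0.0015) and -0.81 ± 0.15 in rdd (adjusted p = 0.0066). VIM1 differed by -1.26 ± 0.19 in WT and -1.42 ± 0.19 in rdd. In that fit 18.1% of all genes were called lower in WT and 13.5% in rdd. MET1, CMT3 and VIM1 passed its filter only with the water libraries counted. With the filter also left out, the adjusted p was 0.0022 in WT and 0.0074 in rdd for MET1, 0.043 and 0.028 for CMT3, and 0.0035 and 0.0032 for VIM1. CMT2 was then called in WT (adjusted p = 0.016) and not in rdd (adjusted p = 0.055), while DDM1 was called lower in rdd (-0.39 ± 0.11, adjusted p = 0.036) and not in WT (adjusted p = 0.063). SUVH5 was also called lower in rdd (-0.41 ± 0.12, adjusted p = 0.041). In this unfiltered fit 14.1% of all genes were called lower in WT and 10.5% in rdd. KYP, the main H3K9 methyltransferase, was called higher in WT there and not with the block (0.55 ± 0.18, adjusted p = 0.04, or 0.047 with no filter), where 31.5% of all genes were called higher.

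The other genes followed no common direction in leaves. KYP held 2.4, 1.55 and 5.21 FPKM after water in WT and 3.36, 3.27 and 5.15 FPKM after flg22, with overlap (with the block 0.36 ± 0.17, adjusted p = 0.1). DRM2 stood at 6.78, 7.22 and 7.58 FPKM in WT after water and at 6.79, 7.18 and 6.59 FPKM after flg22 (-0.06 ± 0.13, adjusted p = 0.74). In rdd DRM2 stood at 7.14, 5.58 and 5.27 FPKM after water and at 8.1, 9.52 and 6.98 FPKM after flg22, with 1 flg22 library just under the highest water library. That rise was called with the block (0.4 ± 0.13, adjusted p = 0.043), where 30.4% of all genes were called higher, and not without it (adjusted p = 0.11), and it was not called with the block and no filter (adjusted p = 0.05). SUVH6 changed by -0.24 ± 0.1 in WT (adjusted p = 0.08) and by 0.06 ± 0.1 in rdd (adjusted p = 0.65), both with the block.

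Genes of DNA replication were lower in the same leaves. Of 22 S-phase genes tested, 18 were called lower and 1 higher in WT with the block, and their median change was -1.04 where the median of all genes was 0.1. Without the block 6 were lower. Of those, 5 were genes of histone H3.1, the replication-linked H3, whose near-identical copies can share reads, among them AT5G65360 (-1.3 ± 0.17, adjusted p = 0.00084). In rdd 14 of 22 were lower with the block and 4 without it, with a median of -0.76. The summed level of 23 S-phase genes ran from 203 to 394 FPKM after water and from 98.6 to 210 FPKM after flg22. Over the same leaves photosynthesis markers summed to 76843 to 96956 FPKM after water and 25722 to 48106 FPKM after flg22. The senescence marker SAG13 rose (4.41 ± 0.35 in WT), while SAG12, the other senescence marker listed, was above 0 in only 2 of all 38 libraries. The part of these shifts in the fall of the 5 genes was not tested.

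**Figure D3:**
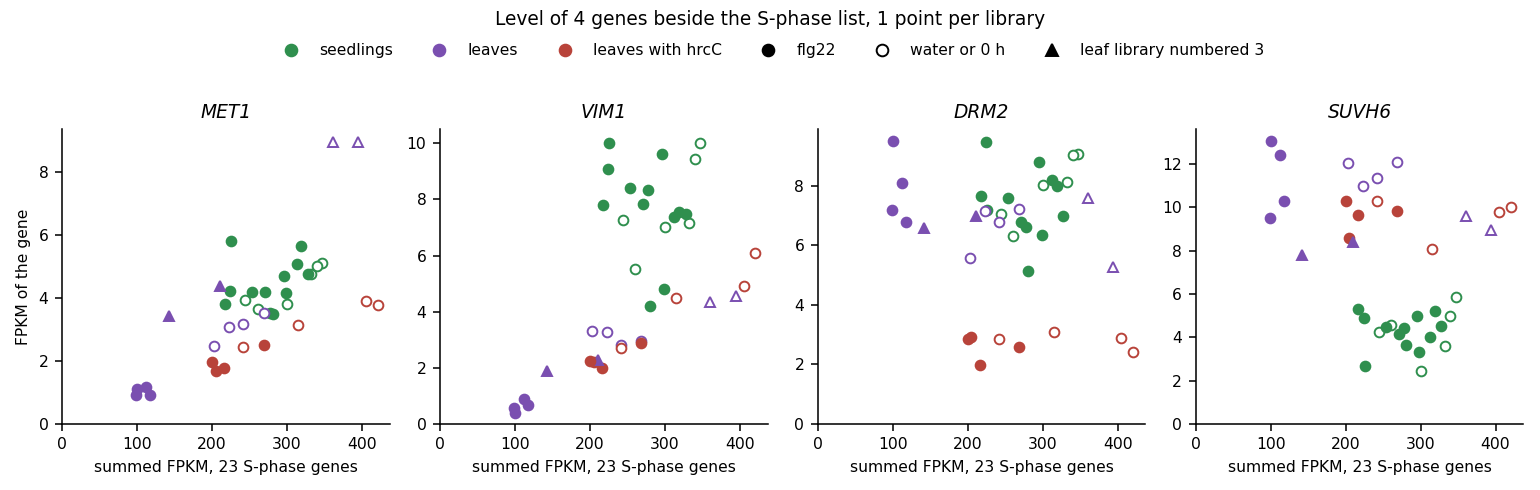
FPKM of MET1, VIM1, DRM2 and SUVH6 (vertical axes) against the summed FPKM of 23 S-phase genes (horizontal axes), 1 point per library. Colours give the kind of sample, filled points are flg22 and triangles are the leaf libraries numbered 3. The 4 leaf libraries after flg22 numbered 1 and 2 lie lowest for MET1, at 0.9 to 1.17 FPKM, and for VIM1, at 0.37 to 0.87 FPKM, and the leaves with hrcC lie lowest for DRM2.

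Relatives and partners of the 9 genes were counted in the same leaves with the block, where 47.5% of all genes were called in WT and 41.2% in rdd. Of 19 paralogs of the maintenance genes 8 passed the filter. With the block 3 were lower and 1 higher in WT, among them VIM3 (-0.64 ± 0.16, adjusted p = 0.011), which reads methylated cytosine as VIM1 does, and SUVH3 (0.39 ± 0.12, adjusted p = 0.022). In rdd 2 were higher and none lower. Of 14 chromatin cofactors 4 were higher and 3 lower in WT with the block. HTA6, an H2A.W histone variant of heterochromatin, was lower (-1.87 ± 0.25, adjusted p = 0.00065), and the histone deacetylase gene HDA6 was higher (0.71 ± 0.1, adjusted p = 0.00077). Both were also called in rdd, with -1.44 ± 0.25 and 0.55 ± 0.1. Of 9 genes that supply the methyl donor, 2 were higher and 1 lower in WT with the block.

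In leaves that received hrcC after the pretreatment, 5 of the 8 genes tested were called lower after flg22 than after water in WT. Of all genes tested 45.4% were called there and 23% called lower. CMT2 fell from 7.92 and 9.44 FPKM to 3.3 and 2.5 FPKM (-1.31 ± 0.15, adjusted p = 0.00046, limma). VIM1 fell from 4.93 and 6.08 FPKM to 2 and 2.22 FPKM (-1.06 ± 0.21, adjusted p = 0.0055). No library of one pretreatment overlapped the other for these genes, nor for KYP and SUVH6, which were not called. Such separation says little with 2 libraries per group, and its share over all genes was not counted. MET1 fell from 3.89 and 3.78 FPKM to 1.78 and 1.67 FPKM (-0.83 ± 0.16, adjusted p = 0.0043), also without overlap.

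DDM1 fell from 1.31 and 1.32 FPKM to 0.2 and 0.35 FPKM (-0.86 ± 0.16, adjusted p = 0.0035). It passed the filter through these water libraries alone, and without the filter, over all 9 genes, the same count of 5 was called lower, with DDM1 at an adjusted p of 0.0015. In that fit 17.7% of all genes were called lower. CMT3 fell from 5.51 and 5.33 FPKM to 3.67 and 3.38 FPKM without overlap (-0.51 ± 0.16, adjusted p = 0.033), and that call was lost in 4 of 4 fits with 1 library left out. The calls of MET1, CMT2 and VIM1 held in 4 of 4 such fits. DDM1 no longer passed the filter when either of the water libraries was left out, so its call was not kept in those fits. DRM2 changed by -0.09 ± 0.17, KYP by -0.39 ± 0.17 and SUVH6 by -0.11 ± 0.13, and none was called.

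In rdd leaves with hrcC, CMT2 alone was called, where 40.6% of all genes were called and 18.6% called lower. It fell from 8.39 and 8.13 FPKM to 4.21 and 3.64 FPKM without overlap (-0.91 ± 0.15, adjusted p = 0.0028), and the call held in 4 of 4 fits with 1 library left out. MET1 stood at 3.15 and 2.45 FPKM after water and at 2.49 and 1.95 FPKM after flg22, with overlap (-0.24 ± 0.16, adjusted p = 0.26). VIM1 stood at 4.5 and 2.71 FPKM after water and at 2.88 and 2.25 FPKM after flg22, also with overlap (-0.35 ± 0.21, adjusted p = 0.23). CMT3 stood at 4.43 and 3.11 FPKM after water and at 4.47 and 4.56 FPKM after flg22, without overlap (0.22 ± 0.16, adjusted p = 0.29). DDM1, KYP and DRM2 were lower after flg22 without overlap and were not called. SUVH5, left out by the filter, was also lower without overlap, at 0.77 and 0.62 FPKM after water and 0.57 and 0.55 FPKM after flg22. With 2 libraries per group a lack of overlap says little, and its share over all genes was not counted. DDM1 stood at 0.69 and 0.87 FPKM after water and at 0.55 and 0.6 FPKM after flg22 (-0.17 ± 0.16, adjusted p = 0.41). KYP stood at 2.57 and 2.6 FPKM after water and at 2.15 FPKM in both flg22 libraries (-0.19 ± 0.17, adjusted p = 0.41), and DRM2 changed by -0.10 ± 0.17 (adjusted p = 0.68).

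The genotype difference in this response was not called for any of the 8 genes, and 0.0956% of all genes were called. The largest were CMT3 (0.73 ± 0.22, adjusted p = 0.28), VIM1 (0.71 ± 0.3, adjusted p = 0.42), DDM1 (0.69 ± 0.22, adjusted p = 0.29) and MET1 (0.59 ± 0.22, adjusted p = 0.37), all positive, as the change in rdd minus that in WT. For CMT3 the change was 0.22 in rdd and -0.51 in WT. All 4 had an unadjusted p under 0.05. So 5 calls in WT and 1 in rdd do not show that the genotypes differed. Of 23 S-phase genes 18 were called lower in WT, with a median of -1.11, and 8 in rdd, with a median of -0.37. MCM5, a subunit of the replicative helicase, changed by -1.25 ± 0.15 in WT and by -0.72 ± 0.15 in rdd. In both genotypes 7 of 9 methyl-donor genes were higher, among them SAM2, an S-adenosylmethionine synthetase gene (1.05 ± 0.11 in WT and 1.79 ± 0.11 in rdd).

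**Figure D4:**
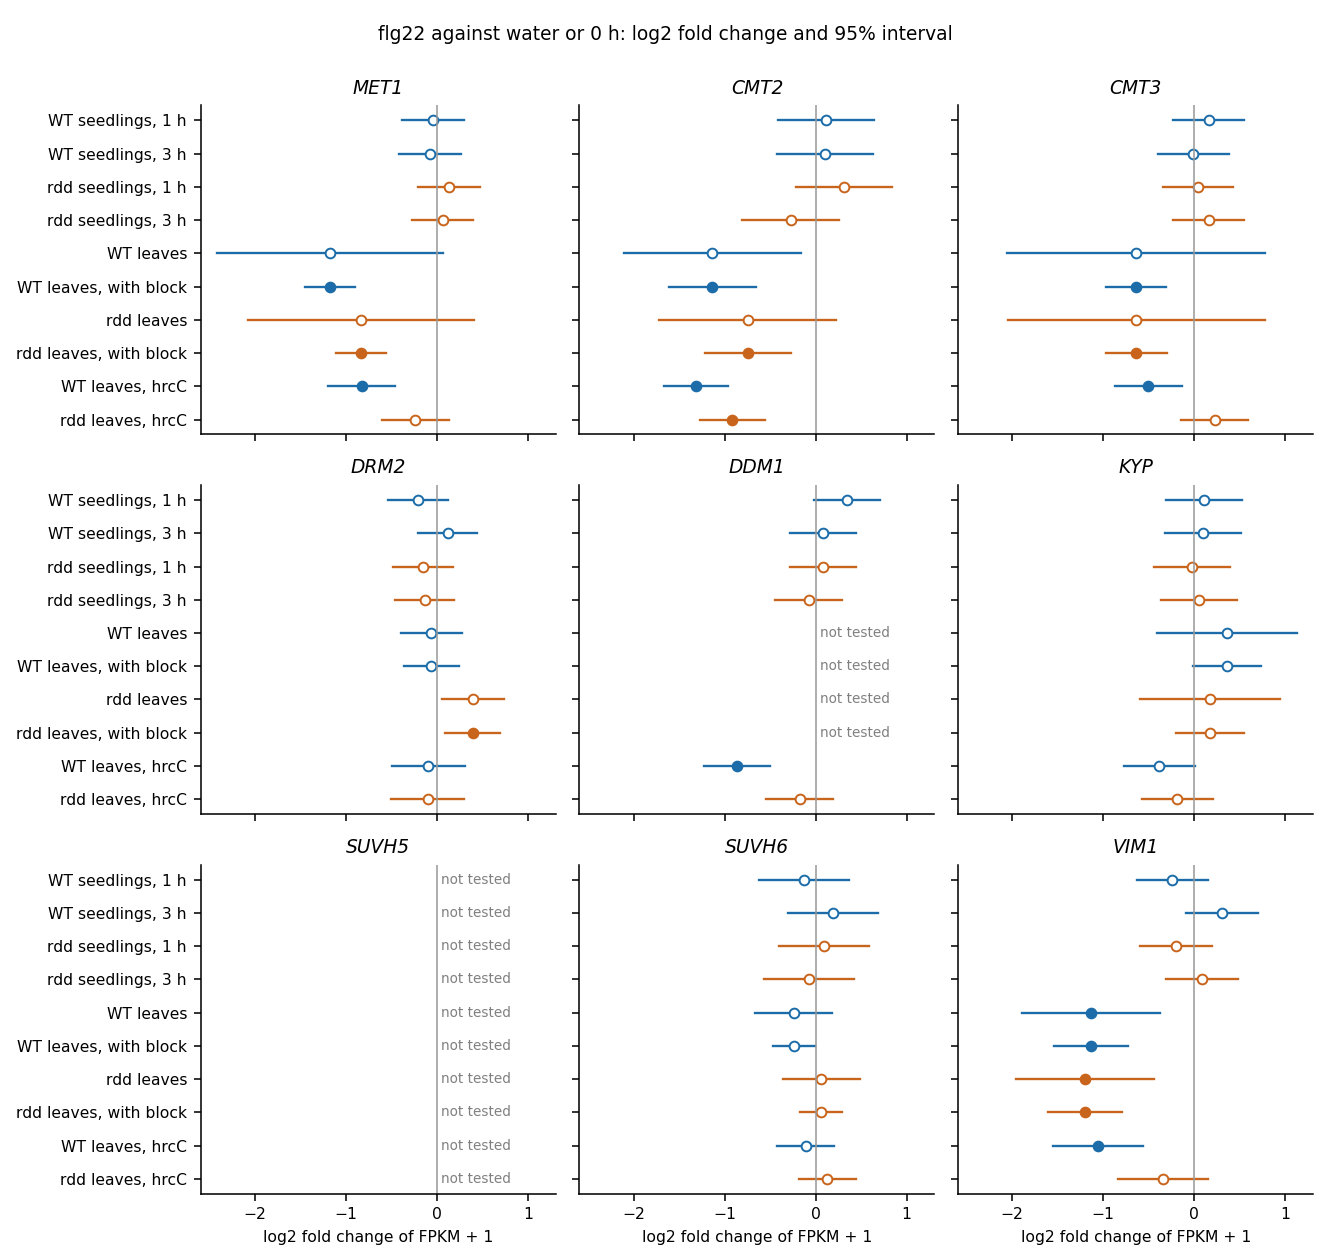
Log2 fold change of FPKM + 1 after flg22 (horizontal axes, against 0 h in seedlings and water in leaves) with 95% intervals for the 9 genes, by sample set (vertical axis). Filled points were called at an adjusted p under 0.05, and genes under the filter on low values are marked as not tested. CMT2 is filled in the WT and rdd leaves with hrcC and, with the block, in both sets of leaves without it.

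Between rdd and WT none of the 9 genes was called in any of 7 conditions. Of 54 values, 38 were positive and 16 negative, between -0.52 and 0.4, and 5 had an unadjusted p under 0.05, with a smallest adjusted p of 0.24. The values repeat the same genes over the conditions, and the share of all genes with a positive difference was not counted. The median of all genes was itself off 0, at 0.07, 0.11 and -0.14 in seedlings at 0, 1 and 3 h. The shares of all genes called were 0.323%, 0.286% and 0.953% in seedlings at 0, 1 and 3 h, 0.0881% and 0.171% in leaves after water and flg22, and 0.945% and 2.08% in leaves with hrcC after water and flg22. The 95% intervals of the 54 values reached from -1.38 to 1.49. The widest were those of CMT3 and MET1 in leaves, where the libraries numbered 3 stood apart, and the block called none of the genes.

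In rdd seedlings at 0 h all 8 tested genes had a positive difference, between 0.02 and 0.36, with a median of 0.21. The median of all genes was 0.07, and none of the 8 was called. VIM1 stood at 7, 10.02 and 9.43 FPKM in rdd and at 7.15, 5.52 and 7.27 FPKM in WT, with overlap (0.36 ± 0.19, adjusted p = 0.84). CMT3 held 4.16, 4.84 and 4.67 FPKM in rdd and 3.77, 3.59 and 3.91 FPKM in WT without overlap (0.22 ± 0.18, adjusted p = 0.98). In leaves with hrcC after water CMT3 was at 4.43 and 3.11 FPKM in rdd and at 5.51 and 5.33 FPKM in WT, again without overlap and not called (-0.44 ± 0.16, adjusted p = 0.32). Other genes separated without overlap as well, in both directions, and were not called. In seedlings at 1 h MET1, CMT2, DRM2 and SUVH5 were higher in rdd. With hrcC after water MET1, DDM1 and VIM1 were lower in rdd. With hrcC after flg22 MET1, CMT2, CMT3, DDM1, SUVH6 and VIM1 were higher in rdd. The share of all genes without overlap was not counted. The genotype difference in the flg22 response was not called for any of the genes in seedlings at 1 h or 3 h or in leaves, where 0.0106%, 0.00529% and 0% of all genes were called. Over these and the hrcC set, 4 of 31 values had an unadjusted p under 0.05.

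**Figure D5:**
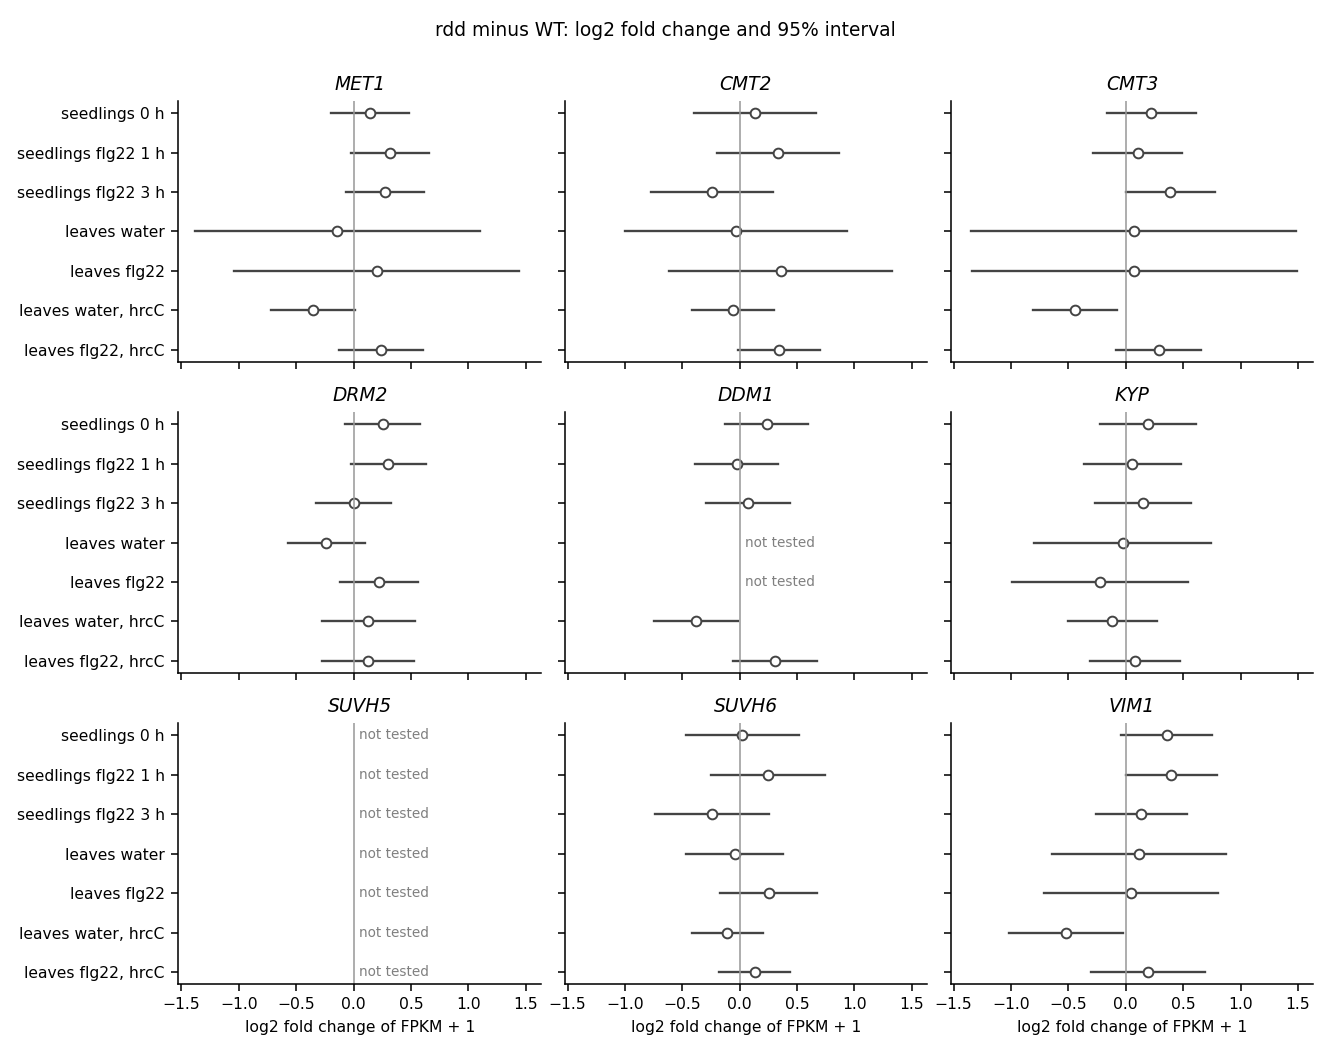
Log2 fold change of FPKM + 1 between rdd and WT (horizontal axes, rdd minus WT) with 95% intervals for the 9 genes in 7 conditions (vertical axis). All points are open, since none was called, and the longest intervals are those of MET1, CMT2 and CMT3 in leaves without hrcC.

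Leaves with hrcC were also set beside leaves without it. Those libraries form separate sets, written with different numbers of decimals, so hrcC and the set cannot be told apart. DRM2 was lower with hrcC in all 4 comparisons, and with all libraries and no block no other of the 8 genes tested was called. Under median-ratio scaling CMT2 was also called higher after water in WT (0.99, adjusted p = 0.04) and rdd (0.97, adjusted p = 0.043), and VIM1 after flg22 in WT (0.75, adjusted p = 0.05) and rdd (0.91, adjusted p = 0.02). The DRM2 libraries held 2.88 and 2.41 FPKM in WT after water and hrcC against 6.78, 7.22 and 7.58 FPKM without hrcC (-1.17 ± 0.16, adjusted p = 3.9e-05, limma). After flg22 in WT they held 1.96 and 2.92 FPKM against 6.79, 7.18 and 6.59 FPKM (-1.2 ± 0.16, adjusted p = 3.2e-05). In rdd the difference was -0.81 ± 0.16 after water (adjusted p = 0.00093) and -1.3 ± 0.16 after flg22 (adjusted p = 1.5e-05).

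DRM2 did not overlap between the sets in any of the 4 comparisons, and leaving out 1 library kept each call. Of all genes tested 45.7% and 48.2% were called in WT after water and flg22, 23.8% and 29.1% lower, and 46.6% and 49.2% in rdd, 24.3% and 30.1% lower. CMT2 differed by 0.76 to 0.96 in the 4 comparisons, not called with FPKM as deposited. Without the leaf libraries numbered 3 it was called higher in all 4, by 1.07 to 1.23, as was CMT3 by 0.85 to 1.73. In those fits 35.1% and 32.7% of all genes were called higher in WT after water and flg22, and 34.7% and 32.2% in rdd. The left-out libraries had organelle shares near those of the hrcC set. After water they held 5.99 FPKM of CMT3 in WT and 6.77 FPKM in rdd. Both were above the hrcC libraries, which held at most 5.51 and 4.43 FPKM. After flg22 they held 2.99 and 4.14 FPKM, below the hrcC libraries at 3.38 FPKM or more in WT and 4.47 FPKM or more in rdd.

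The genes fell into different patterns over the 14 group means of log2(FPKM + 1). The Pearson correlation, a description over groups that share sets and treatments, was 0.927 between DDM1 and VIM1, 0.865 between MET1 and VIM1, 0.835 between MET1 and DDM1 and 0.8 between CMT3 and VIM1. SUVH6 ran opposite to DDM1 (-0.894) and VIM1 (-0.781), and KYP opposite to CMT3 (-0.7), VIM1 (-0.666) and DDM1 (-0.608). CMT2 ran opposite to DRM2 (-0.699). Among 16451 nuclear genes with at least 5 FPKM in their highest group mean, those most like VIM1 were PAI1 (0.97), PCNA2 (0.97), the sliding clamp of DNA polymerase, and ACLA-1 (0.969). For CMT2 these were AT1G45207 (0.982), AUG4 (0.964) and the helicase gene MCM5 (0.964), and for DDM1 the histone chaperone gene ASF1B (0.985), ASN3 (0.974) and AT3G53380 (0.974).

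For MET1 the most alike were SAH7 (0.966), AT4G38370 (0.951) and Tic20-II (0.95), and for CMT3 they were TUA2 (0.96), a tubulin gene, GAE2 (0.954) and AT5G01460 (0.946). DRM2 was most like PIP1A (0.987), AT2G30700 (0.987) and AT1G09710 (0.987). SUVH6 was most like AT1G76630 (0.994), AT3G24870 (0.993) and AT2G21380 (0.991). KYP was most like AT4G33620 (0.949), Cand2 (0.934) and AT5G16520 (0.918). SUVH5, the lowest of the 9, had no gene above 0.797, the value for BUB3.1, a spindle checkpoint gene, ahead of AT4G30330 (0.775) and AT1G47900 (0.74).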

How the data were processed

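The submitters' processing notes name HISAT2, featureCounts, DESeq2 and TAIR10, without versions. The table the authors deposited gives no unit; since its values have decimals and total 904625 to 1231239 per library, they were taken to be FPKM that the authors made from fragments per gene, scaled by gene length and library total; this is an inference from the values alone. Whole reads could not be recovered, and the test planned for counts was replaced by the one planned for scaled values. With R 4.3.3, limma 3.58.1 (trend and robust) was fitted to log2(FPKM + 1), with 1 mean per group, separately for 18 seedling, 12 leaf and 8 hrcC libraries and for 2 joint sets. P-values are two-sided, Benjamini-Hochberg adjusted over all genes tested. The script was tested on simulated data.

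The 9 members, the gene lists, the 27 comparisons and the rule for named genes (called list genes, up to 4 per list by smallest adjusted p, and the 3 genes most alike each member) were chosen with earlier results of these data known. ROS1, DML2 and DML3, the mutated genes, and the markers SAG12 and SAG13 are named beside them. Same-numbered leaf libraries of different groups correlated at 0.313 to 0.904 after group means were removed, all above 0.1, and the block was fitted as an alternative. Libraries numbered 1 correlated with those numbered 2 of other groups as well, at 0.396 to 0.741. So the libraries numbered 3 stood apart, and the numbers 1 and 2 are not shown to pair samples. The 32 bisulfite samples were not used here. The series text states 3 RNA repeats, and the hrcC set has 2 libraries per group.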

Additional observations from a re-analysis of the deposited data

How the results depend on the processing

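Of 27 counts of called members, those for rdd against WT, the interactions and 5 of 6 seedling flg22 comparisons were 0 under each alternative run. In WT seedlings between 1 h and 3 h the count was 1 without the variance trend, and 0 to 1 with 1 library left out. In leaves after flg22, main count 1 in each genotype, it was 0 with a pseudocount of 0.1 FPKM and 0 with only the compared groups. With the replicate block it was 4 in WT, all lower, and 5 in rdd, where DRM2 was called higher and the others lower. With the block and no filter both were 5, all lower. Leaving out the leaf libraries numbered 3 gave 5 and 4, and both were 5 with the filter also left out. In both of those fits KYP was called higher in WT and the other calls were lower. Dropping the filter beside the block and leaving out those libraries were both chosen after seeing the data. With 1 library left out the count in each genotype was 0 to 1. In WT leaves with hrcC, count 5, leaving out 1 library gave 3 to 4. In seedlings against leaves, counts 2 in WT and 4 in rdd, the WT count was 4 with the block, 4 without the libraries numbered 3, with or without the filter, and 2 to 3 with 1 library left out; the rdd count was 2 with only the compared groups and 3 to 5 with 1 library left out.

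For hrcC against none, count 1 in each of 4 comparisons, median-ratio scaling gave 2 in each. Numbers do not pair samples across sets, where same-numbered libraries correlated at -0.095 to 0.146. The block gave 5 and 6 in WT after water and flg22, and 4 and 6 in rdd; without the filter these were 5, 6, 4 and 6. Without the leaf libraries numbered 3 they were 4, 6, 4 and 6, and 5, 6, 5 and 7 with the filter also left out. There DDM1 in rdd after water, not called at -0.16 otherwise, was called at 0.31. With 1 library left out they were 1 to 2, 1 to 3, 1 to 2 and 1 to 4. In seedlings same-numbered libraries correlated at -0.272 to 0.33 and in the hrcC set at -0.104 to 0.111, so those numbers do not pair samples, and the block moved no count there. Under median-ratio scaling the all-gene median moved by over 0.1 on the log2 scale in 11 of 27 comparisons, the most in WT seedlings against leaves, from -0.17 to 0.03. It moved the share of higher genes among those called by over 10 points in 8. In WT this was from 63.8% to 46.9% between 1 h and 3 h and from 64.1% to 51.2% in leaves after flg22. In rdd it was from 50% to 62.5% at 3 h, from 77.5% to 52.3% in leaves after flg22 and from 38.9% to 49.8% for hrcC against none after flg22. For rdd against WT it was from 27.9% to 15.3% at 0 h, from 42.6% to 26.7% at 1 h and from 25% to 38.1% in leaves after water. No member called with all libraries and the filter reversed its direction. The causes were not tested. Depth is unknown from FPKM, which limits DDM1 in leaves and SUVH5 throughout.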
